A study of Mus musculus with 8 samples.

Results

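DNA methylation was described across 7 liver genes of amino acid and urate breakdown: Hal, Amdhd1 and Ftcd of the histidine pathway, Hgd and Gstz1 of the tyrosine pathway, and Xdh and Uox of the urate pathway. The genes were given as a fixed list, chosen with earlier results of these data known. Contrasts below between the 7 genes and all regions are therefore a description only. Each gene was taken as its RefSeq span (GRCm38.p6, the assembly behind mm10) with 5 kb added on each side. The genes are 7 of 14811 protein-coding genes on the chromosomes analysed, and their extended spans held 6690 listed cytosine positions, counting shared positions once. All 7 had enough positions to be tested. The libraries were whole-genome bisulfite libraries of liver from male C57BL/6J mice with a wild-type genotype, with the title NASH (nonalcoholic steatohepatitis) on 4 and WT on the other 4. The mice were bought at 8 weeks of age and were fed either a normal diet or a diet rich in fat, cholesterol and fructose, for 28 weeks. WT-titled libraries are called ND (normal diet) here, after the column names of the deposited table. In the labels, the diets in the treatment field run opposite to the titles, and if that field were right, every "higher" below would read "lower". Whether each library is its own mouse is not stated, so p-values measure only the spread between libraries, which may be technical.

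Histidine is broken down mainly in liver, where histidase makes urocanate, which is then opened to formiminoglutamate, and the formimino group is passed to folate. Phenylalanine and tyrosine are broken down by way of homogentisate and maleylacetoacetate to fumarate and acetoacetate. Purines end as urate, which rodents, unlike humans, oxidise further to allantoin. Genes active in one tissue often carry low methylation at and just downstream of their start in that tissue, and many CpG-dense starts are unmethylated in every tissue. Bisulfite converts unmethylated cytosines, so the methylation level of a cytosine is the percent of its reads left unconverted. A difference is the NASH mean less the ND mean, in percentage points; values after ± are SDs over n = 4 libraries, and calls are at a Benjamini-Hochberg adjusted p under 0.05 from limma, adjusted over all regions of the same kind.

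Each library had a level at 30729668 positions and no read count, so the depth behind a level is unknown. Mean levels over all positions were 71.0% to 72.3% in NASH and 71.1% to 72.3% in ND. Between 12.3% and 13.1% of the positions in a library were listed at exactly 0, and some stood between highly methylated neighbours, where a zero can mean no reads. As a check of the tissue, marker lists were used that were chosen with earlier results of these data known. The 16 tested ends of 8 hepatocyte marker genes had a mean level of 37.2% to 39.2% in ND and 45.4% to 51.8% in NASH. Of the 16, 16 were higher in NASH, against 45.5% of all gene ends. The 18 ends of 9 leukocyte marker genes were at 73.1% to 75.2% in ND and 68.4% to 71.2% in NASH, with 3 of the 18 higher in NASH. The ends of stellate, endothelial and cholangiocyte markers were at 52.1%, 70.6% and 47.1% in ND and differed by -1.91, -2.25 and 0.853 points, with overlapping libraries. In bulk liver a change in the share of cells of a type and a change of methylation within those cells cannot be told apart. The part of this shift in the results below was not tested.

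RefSeq start regions were at hand for 6 of the 7 genes, all but Xdh, with 2 for Gstz1. The 5 printed here were chosen, with their values known, to set CpG-rich starts with levels near 0 beside CpG-poor starts at intermediate levels. The starts not printed are those of Hal, whose 7 CpGs were at 18.5% ± 7.40 in ND and 24.1% ± 10.05 in NASH, and of Hgd, whose 2 CpGs were at 13.8% ± 6.71 and 8.77% ± 5.43, with overlapping groups at both. Each runs 5′ to 3′ from 250 bases before to 50 bases after the start, from RefSeq (GRCm38.p6), in lower case with each CpG in capitals.
Uox, chr3:146596899-146597198, plus strand: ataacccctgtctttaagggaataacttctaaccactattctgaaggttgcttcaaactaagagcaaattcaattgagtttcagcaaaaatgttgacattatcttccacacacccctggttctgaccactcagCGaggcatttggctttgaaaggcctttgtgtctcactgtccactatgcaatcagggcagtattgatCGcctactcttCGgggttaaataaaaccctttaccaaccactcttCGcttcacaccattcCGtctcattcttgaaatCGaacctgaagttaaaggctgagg
Ftcd, chr10:76575398-76575697, plus strand: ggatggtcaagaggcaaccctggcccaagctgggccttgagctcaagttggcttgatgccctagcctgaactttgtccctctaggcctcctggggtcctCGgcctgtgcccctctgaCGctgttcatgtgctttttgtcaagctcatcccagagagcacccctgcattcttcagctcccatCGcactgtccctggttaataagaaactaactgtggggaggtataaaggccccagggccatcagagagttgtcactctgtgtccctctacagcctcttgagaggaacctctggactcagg
Gstz1, first start, chr12:87146915-87147214, plus strand: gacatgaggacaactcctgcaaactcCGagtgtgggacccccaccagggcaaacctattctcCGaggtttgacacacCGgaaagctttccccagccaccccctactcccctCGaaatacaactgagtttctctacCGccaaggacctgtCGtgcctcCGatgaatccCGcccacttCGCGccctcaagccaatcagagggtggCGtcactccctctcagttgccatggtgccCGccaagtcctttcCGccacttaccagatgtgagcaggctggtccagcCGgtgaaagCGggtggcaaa
Gstz1, second start, chr12:87157353-87157652, plus strand: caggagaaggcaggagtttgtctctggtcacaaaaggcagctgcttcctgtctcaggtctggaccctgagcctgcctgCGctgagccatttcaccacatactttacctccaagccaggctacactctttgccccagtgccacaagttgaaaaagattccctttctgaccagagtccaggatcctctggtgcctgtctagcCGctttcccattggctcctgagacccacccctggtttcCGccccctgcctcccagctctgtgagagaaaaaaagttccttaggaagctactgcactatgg
Amdhd1, chr10:93539984-93540283, minus strand: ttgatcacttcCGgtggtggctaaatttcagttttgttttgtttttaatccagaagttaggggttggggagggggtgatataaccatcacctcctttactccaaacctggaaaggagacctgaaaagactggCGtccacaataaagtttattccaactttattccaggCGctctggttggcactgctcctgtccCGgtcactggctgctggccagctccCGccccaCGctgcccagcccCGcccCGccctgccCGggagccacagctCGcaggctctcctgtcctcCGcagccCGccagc
The Gstz1 first start holds 15 CpGs and the Amdhd1 start 12, while the Uox start holds 6, and the Ftcd and second Gstz1 starts 3 each. Of 23382 RefSeq start regions of this length on the chromosomes analysed, 30% hold as few CpGs as the Ftcd start, 46.8% as few as the Uox start and 65.8% as few as the first Gstz1 start.

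Methylation over the extended span was higher in NASH at 5 of the 7 genes, Uox, Amdhd1, Gstz1, Hal and Hgd, and not called at Ftcd and Xdh. Among all 14683 extended spans 9.33% were called, 5.99% higher and 3.34% lower. The median difference was 2.92 points over the 7 genes and -0.279 over all spans, and the mean was higher in NASH at 7 of the 7 genes against 39.8% of all spans. At the 5 called genes every NASH library lay above every ND library, a separation seen in 9.49% of all spans, with 8.17% separated the other way. With every zero left out, 0 of the 7 extended spans were called, and the difference was still above 0 at 6 of them.

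**Figure D1:**
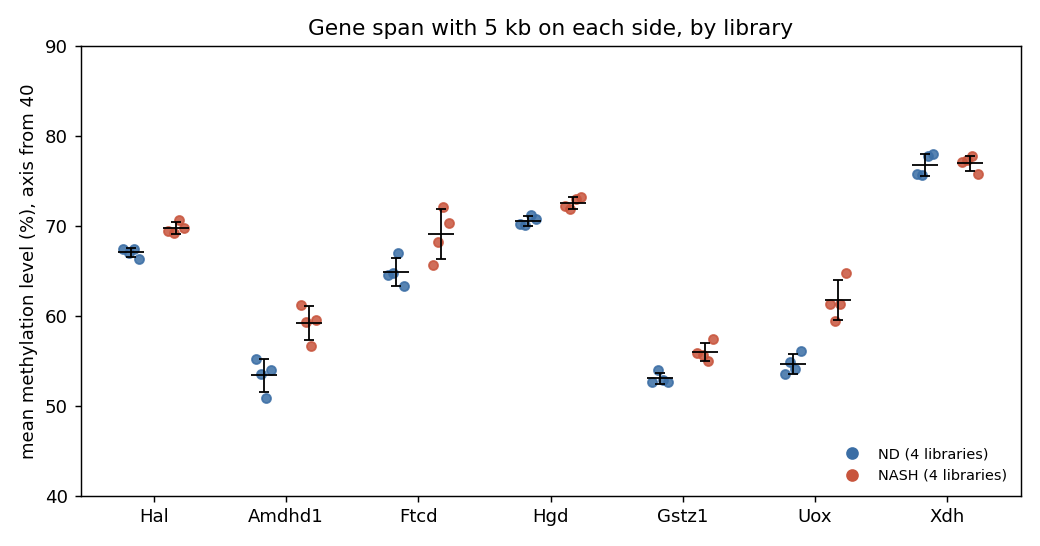
Mean methylation level (%) over each gene with 5 kb on each side; points are libraries (4 ND, 4 NASH), and bars are the mean and SD. The axis starts at 40%. The groups stand apart at Hal, Amdhd1, Hgd, Gstz1 and Uox and overlap at Ftcd and Xdh.

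Uox, which encodes urate oxidase, the enzyme that turns urate into allantoin in rodents, had the largest difference of the 7. Its extended span (chromosome 3, 146592149 to 146636483, 1016 positions) was at 53.6%, 54.9%, 54.1% and 56.1% in the ND libraries. In the NASH libraries it was at 61.3%, 59.4%, 61.4% and 64.8%. The lowest NASH library was thus above the highest ND library, and the difference was 7.06 points (limma SE 1.07, adjusted p = 0.00509). This call held with each library left out in turn (adjusted p from 0.00455 to 0.0198).

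The start end of Uox, from 1000 bases outside to 500 inside the gene, held 40 positions. It was at 22.3%, 27.4%, 27.8% and 21.2% in ND and at 44.1%, 44.1%, 43.3% and 51.7% in NASH. The groups were far apart, and 1 NASH library stood above the other NASH libraries. The rise was 21.1 points (limma SE 2.54, adjusted p = 0.0381). Among all 28754 gene ends 0.32% were called, 0.24% higher and 0.08% lower. Leaving out any 1 library ended this call (adjusted p from 0.0529 to 0.1003), with differences from 19.2 to 22.2 points. The opposite end of Uox was at 73.9% ± 4.35 in ND and 79.0% ± 5.66 in NASH, where the groups overlapped.

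Along Uox, 38 of 42 windows of 1000 bases had a higher mean in NASH, and in 13 of them every NASH library was above every ND library. Among all 1597857 windows 2.81% were separated in this direction. No window of any gene was called among the 1597857 (limma, 0 calls and 169490 at an unadjusted p under 0.05). The window just upstream of the Uox start went from 20.5% ± 4.91 in ND to 49.0% ± 6.18 in NASH (28.5 points, limma adjusted p = 0.0657). That window lies in a low-methylated stretch across the start, where 6 neighbouring windows had ND means from 19.7% to 31.0%. In the Uox sequence above, the 6 CpGs together were at 28.7% ± 9.34 in ND and 43.2% ± 6.83 in NASH, each of the 6 was higher in the NASH mean, and the groups overlapped at each of them. Dnase2b, a nuclease gene, overlaps the first 19912 bases of Uox. In the 23 Uox windows wholly inside the Dnase2b span the median difference was 9.66 points, with 12 separated windows. The window across the end of Dnase2b was also separated, by 16.5 points, and in the 18 windows beyond it the median was 4.63 points, with 0 separated.

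Xdh encodes xanthine dehydrogenase, the enzyme that makes urate from hypoxanthine and xanthine, and its level did not differ beyond the spread. Over its extended span (chromosome 17, 73878895 to 73955397, 1590 positions) the ND libraries were at 75.8%, 75.6%, 77.8% and 77.9%. The NASH libraries were at 77.0%, 77.3%, 77.7% and 75.8%, all inside the ND range. The difference was 0.177 points (limma SE 0.688, adjusted p = 0.905). The end with the lower coordinate was at 60.4% ± 3.41 in ND and 61.1% ± 4.16 in NASH, and the end with the higher coordinate at 23.1% ± 0.839 and 23.5% ± 3.08. Of its 74 windows, 4 were separated with higher and 3 with lower NASH levels (5.41% and 4.05%, against 2.81% and 3.73% of all windows). Among the higher ones was the window at the high-coordinate gene end, which went from 1.40% ± 0.855 to 7.02% ± 1.93.

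Hal encodes histidase, the first enzyme of histidine breakdown. Over its extended span (chromosome 10, 93483768 to 93521761, 946 positions) the ND libraries were at 67.4%, 67.0%, 67.4% and 66.3%, and the NASH libraries at 69.4%, 69.1%, 70.7% and 69.7%. The groups did not overlap, and the difference of 2.72 points was called (limma SE 0.476, adjusted p = 0.00937). The call held with each library left out in turn, and was lost without the 5 kb extensions (1.9995 points, adjusted p = 0.135).

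The difference at Hal was not spread evenly. The called end was the one opposite the start, with 20 positions, which was at 28.6%, 21.5%, 28.1% and 24.4% in ND and at 56.8%, 38.5%, 55.4% and 55.0% in NASH. One NASH library was thus well under the other 3 and still above every ND library. The rise was 25.8 points (limma SE 4.01, adjusted p = 0.0453). It lost its call when any library but NASH replicate 2 was left out (adjusted p up to 0.117, differences from 24.0 to 30.1 points). The start end of Hal, with 60 positions, was at 23.5% ± 3.36 in ND and 32.9% ± 3.70 in NASH. Here the groups did not overlap, but the difference of 9.32 points was not called (limma adjusted p = 0.119). With ends reaching 2000 bases either way, where 890 of 29158 ends were called, it was 6.30 points and called (adjusted p = 0.0476).

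Around the downstream gene end of Hal, 3 neighbouring windows were at 22.8% ± 3.12, 24.4% ± 2.76 and 22.3% ± 5.87 in ND, and at 53.6% ± 13.2, 43.2% ± 11.8 and 37.8% ± 7.46 in NASH. In each of the 3 the groups were separated, and in the window on either side they overlapped. The stretch thus matches the run of separated windows, and its contrast with the rest is a description only. The other 34 windows of Hal had a median difference of 0.804 points, and 2 of them were separated. Methylation at Hal thus had a pair of low-methylated stretches in ND liver, at its start and at its downstream end, and the larger difference lay at the downstream one.

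Amdhd1 encodes imidazolonepropionase, the enzyme that makes formiminoglutamate. The gene lies on the opposite strand, with its downstream end 6576 bases from that of Hal, and their extended spans share 3424 bases. Over its extended span (chromosome 10, 93518338 to 93545111, 724 positions) Amdhd1 was at 55.2%, 53.6%, 50.9% and 53.9% in ND and at 61.2%, 59.3%, 56.6% and 59.6% in NASH. Every NASH library was above every ND library, by 5.79 points on average (limma SE 1.14, adjusted p = 0.0154), and the call held with each library left out in turn (adjusted p up to 0.0495).

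The start end of Amdhd1, CpG-dense as its sequence above shows, had 106 positions and stayed low, at 3.40% ± 1.91 in ND and 7.21% ± 3.19 in NASH. The groups overlapped, and the difference was not called (limma adjusted p = 0.347). In the sequence itself the 12 CpGs were at 1.34% ± 0.954 and 2.93% ± 1.51. The 4 windows from 1 to 5 kb downstream of the start were all separated, with differences from 6.38 to 14.2 points. The groups overlapped in the window on either side of this run. Its bounds thus match the separated windows, and the count is a description only. The second of the 4 was at 27.9%, 27.7%, 24.5% and 20.8% in ND and at 44.9%, 41.0%, 30.0% and 28.7% in NASH. The groups there were only just apart. One window near the middle of the gene went the other way, from 89.6% ± 3.18 to 75.1% ± 2.77. Ccdc38 begins 556 bases from the Amdhd1 start on its upstream side, and the separated window 4.47 kb upstream lies inside it.

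Ftcd encodes a folate enzyme that takes over the formimino group and releases its ammonia. Over its extended span (chromosome 10, 76570648 to 76595338, 538 positions) the ND libraries were at 64.5%, 64.7%, 67.0% and 63.3% and the NASH libraries at 65.6%, 68.2%, 72.1% and 70.3%. The groups overlapped through 1 NASH library, and the difference of 4.21 points was not called (limma SE 1.34, adjusted p = 0.0881). Without NASH replicate 1 it was 5.35 points and called (adjusted p = 0.0276), while it was 1.31 points without the 5 kb extensions (adjusted p = 0.735) and 1.71 with every zero left out (adjusted p = 0.483).

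The start end of Ftcd was at 54.2%, 56.0%, 53.3% and 45.7% in ND and at 67.8%, 64.8%, 61.6% and 71.2% in NASH. Its groups did not overlap, and neither did those of its opposite end, at 64.2% ± 3.31 and 73.2% ± 1.01, but the differences of 14.04 and 8.94 points were not called (limma adjusted p = 0.0876 and 0.126). With every zero left out the difference at the start end was 5.98 points (adjusted p = 0.452). The 3 CpGs of the Ftcd sequence above were at 19.98% ± 12.7 in ND and 44.9% ± 15.6 in NASH. Of these, the CpG 69 bases before the start was separated, at 16.6% ± 8.61 and 51.6% ± 15.1. The window just downstream of the start went from 19.3% ± 10.48 to 43.6% ± 12.6, with ND replicate 4 at 4%, far under the other ND libraries. In that library 16.4% of the Ftcd positions were exact zeros, against 8.74% to 9.48% in the other ND libraries. Of the 23 Ftcd windows 7 were separated, each with higher levels in NASH (30.4%, against 2.81% of all windows).

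Over the 14 ends of the 7 genes, 2 were called, both higher, where 0.32% of all ends were called and 0.24% called higher. Separated with higher levels in NASH were 6 of the 14, against 4.3% of all ends. None of the 14 was separated the other way (4.04% of all ends), so that 6 of 14 were separated at all, against 8.34%. Among the 6 ends known to hold a start, those of Hal, Ftcd and Uox were separated, against 3.77% of all 11428 such ends. With ends reaching 2000 bases either way 4 of the 14 were called. These were the Hal and Hgd starts beside those at Uox and the downstream end of Hal. Calls also rose among all ends, from 92 of 28754 to 890 of 29158. The plot of gene ends shows the 6 separated ends at Hal, Ftcd, Amdhd1 and Uox.

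**Figure D2:**
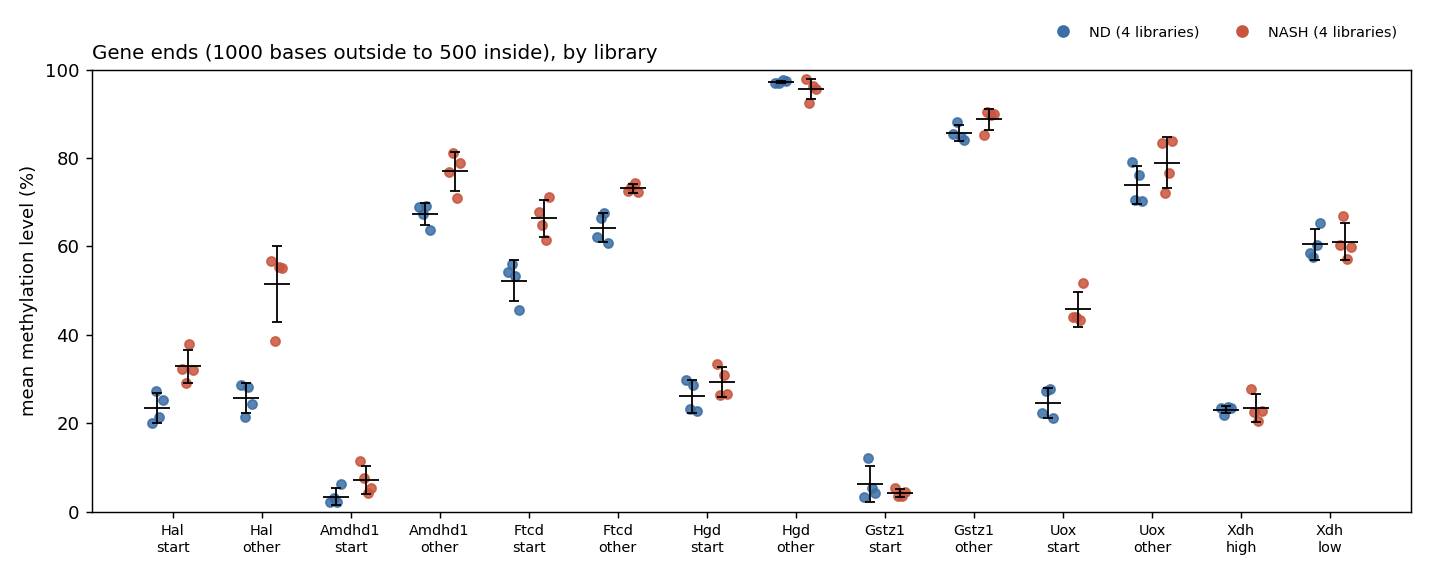
Mean methylation level (%) of each gene end, from 1000 bases outside to 500 inside, with libraries as points (4 ND, 4 NASH) and mean and SD as bars; "start" is the end with the transcription start, "other" the opposite one, and the Xdh ends are named by coordinate. Uox at its start and Hal at its other end have the widest gaps, and the starts of Amdhd1 and Gstz1 are at 12.1% or less in every library.

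Hgd encodes homogentisate dioxygenase, whose loss causes alkaptonuria in humans. Its extended span (chromosome 16, 37574742 to 37637026, 1204 positions) was at 70.2%, 70.1%, 71.3% and 70.7% in ND and at 72.2%, 71.8%, 73.0% and 73.2% in NASH. The groups were close but did not overlap, and the 2.01 points were called (limma SE 0.479, adjusted p = 0.0330). Leaving out 1 library ended the call in 6 of 8 cases, all but those without ND replicate 3 and NASH replicate 2 (adjusted p from 0.0351 to 0.0981). With every zero left out the difference fell to 0.668 points (adjusted p = 0.645). Positions from 5 to 50 kb outside Hgd were also higher in NASH, at 71.6% ± 0.347 in ND and 73.4% ± 1.05 in NASH, with no overlap. The share of all genes with such separated flanks was not counted.

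Inside Hgd the separated windows lay mostly in the first 10 kb. The start end itself, with 18 positions, was at 26.1% ± 3.68 in ND and 29.3% ± 3.38 in NASH, and its groups overlapped. With ends reaching 2000 bases either way, where 890 of 29158 ends were called, the difference was 11.1 points and called (limma adjusted p = 0.00772). The next window, 1.35 kb downstream of the start, was at 11.3%, 12.7%, 27.9% and 19.0% in ND and at 46.7%, 40.7%, 37.8% and 54.6% in NASH. That is a difference of 27.2 points between groups that were well apart (limma adjusted p = 0.0829). The 2 windows after it were also separated, by 24.0 and 16.6 points, while a CpG-dense window 4.35 kb downstream, with 58 positions, was at 7.54% ± 2.90 in ND and 5.84% ± 3.30 in NASH. More than 10 kb downstream, 0 of 46 windows were separated with higher NASH levels, and their median difference was 0.547 points. A window 24.3 kb downstream was separated the other way, from 84.3% ± 1.92 in ND to 77.9% ± 3.06 in NASH. The cut at 10 kb matches where the separated windows lie, so the contrast across it is a description only.

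Gstz1 encodes maleylacetoacetate isomerase, a glutathione transferase that acts on the product of Hgd. Its extended span (chromosome 12, 87142161 to 87169723, 746 positions) was at 52.7%, 54.0%, 52.9% and 52.6% in ND and at 55.8%, 55.6%, 55.0% and 57.4% in NASH. The groups did not overlap, and the rise of 2.92 points was called (limma SE 0.615, adjusted p = 0.0206). The call was lost without ND replicate 1, 3 or 4 (adjusted p = 0.0655, 0.0528 and 0.0565).

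The Gstz1 start end, with 128 positions, was at 6.23% ± 4.02 in ND and 4.22% ± 0.820 in NASH, and its groups overlapped. The first 808 bases of Gstz1 also lie inside Pomt2. In the first-start sequence above the 15 CpGs were at 0.861% ± 0.705 and 0.347% ± 0.417. The second start lies 10.4 kb downstream and holds 3 CpGs, which were at 28.2% ± 4.67 in ND and 40.1% ± 5.94 in NASH with groups that overlapped through 1 ND library. The window around it was separated, at 20.2% ± 5.11 and 34.3% ± 3.76, a difference of 14.1 points (limma adjusted p = 0.142). All 6 separated windows of Gstz1 were 6.34 kb or more downstream of the first start. Those 19.3 and 20.3 kb downstream lie beyond the gene, in the 5 kb extension, and fall on the neighbouring gene Tmed8.

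**Figure D3:**
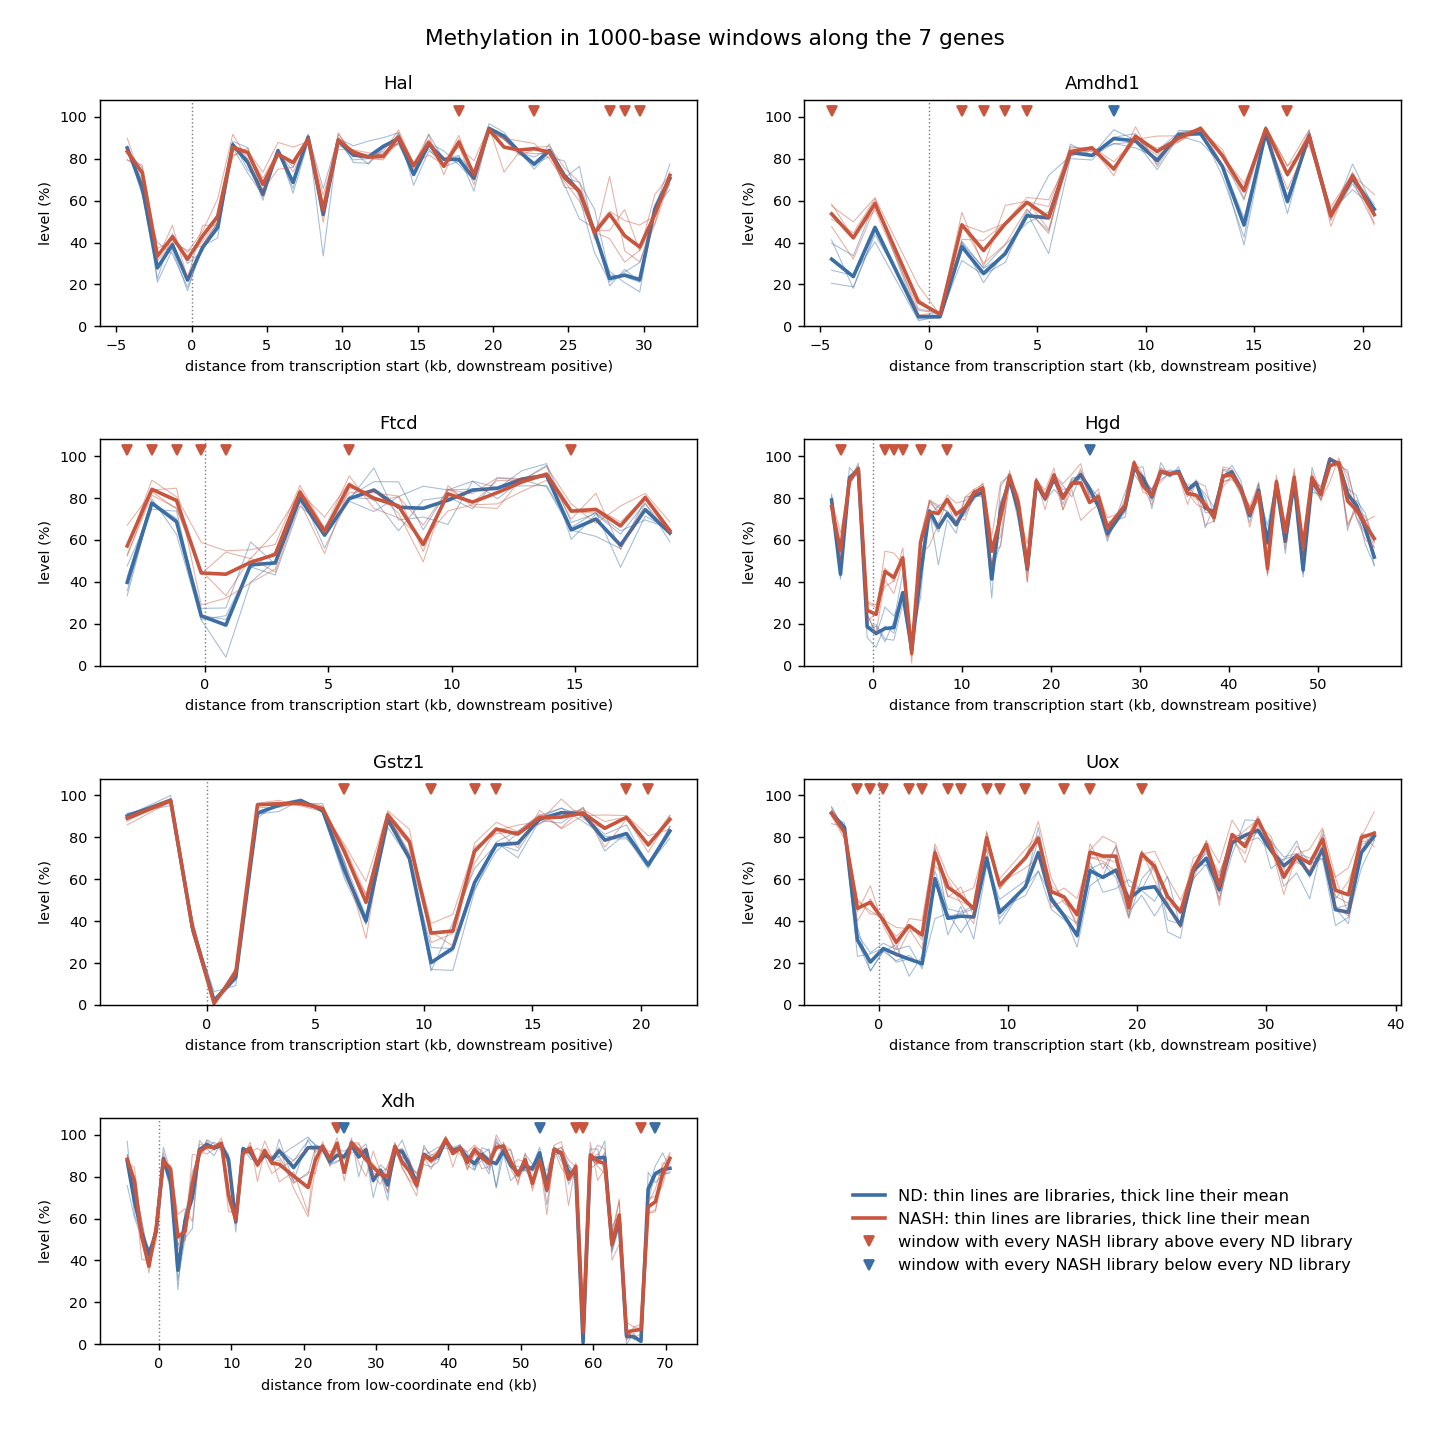
Methylation level (%) in windows of 1000 bases against distance (kb) from the transcription start, or from the low-coordinate end for Xdh. Thin lines are libraries, thick lines group means, and triangles mark windows whose groups do not overlap. The Gstz1 and Amdhd1 starts reach the bottom of the axis in both groups. Gaps between groups lie beside the Amdhd1 start, but at Gstz1 only 6.34 kb or more downstream of the first start. Others lie across the Uox and Ftcd starts, in the first 10 kb of Hgd and at the downstream end of Hal.

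Across the 285 windows of the 7 genes, counting shared ones once, 48 were separated with higher and 5 with lower NASH levels (16.8% and 1.75%, against 2.81% and 3.73% of all windows, or 6.54% in either direction). Windows under 50% in ND made up 63 of the 285, and 28 of these 63 were separated with higher levels (44.4%, against 13% of all windows under 50%). Of the 222 windows at 50% or more, 20 were separated in this direction (9.01%, against 1.95%). The median difference was 9.49 points in the windows under 50% and 0.804 in the others, where over all windows it was 1.63 and -0.797. In the windows from 20% to 30% in ND the 14 windows of the 7 genes had a median difference of 14.8 points, where all 18946 windows of that level had one of 3.60. Under 10% the 8 windows had a median of 2.50 points. The ND level enters both measures, so this relation is a description only, and neighbouring windows share libraries and sequence context.

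**Figure D4:**
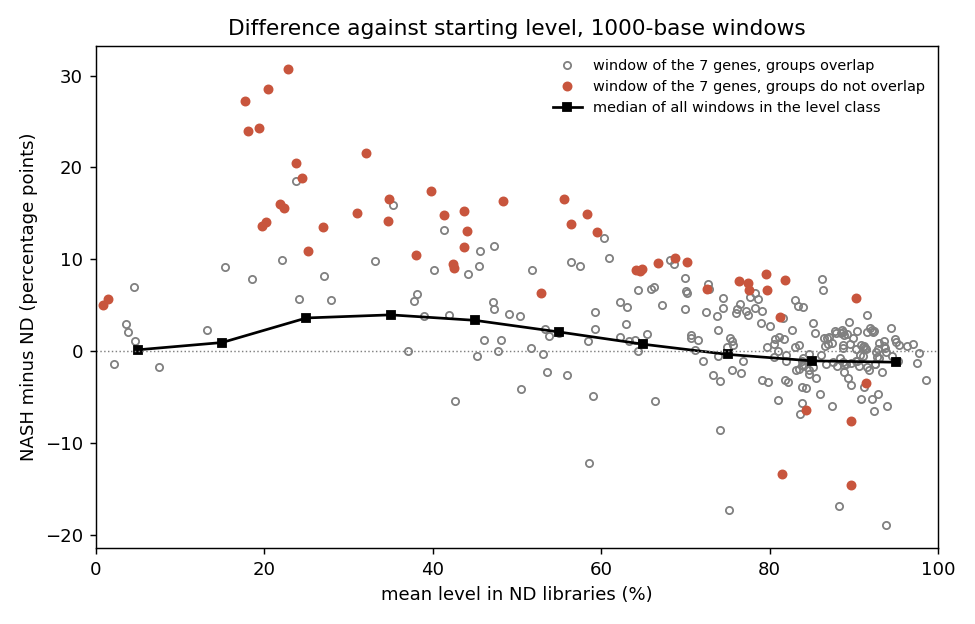
Difference between group means (NASH minus ND, percentage points) against the mean ND level (%) for the 285 windows of the 7 genes. Filled points are windows whose groups do not overlap, and the black line is the median of all windows in classes of 10 percentage points. The highest point, at 30.8, is the Hal window at 22.8% in ND, and the line of all windows does not pass 3.94.

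Single CpGs separated with higher levels in NASH were most frequent at Amdhd1 and Uox and least frequent at Xdh. With the strands of each CpG averaged, 5.32% of the 3345 CpGs in the 7 extended spans were separated with higher levels in NASH and 1.41% with lower levels, where 1.5% and 1.75% of all 15364834 CpGs were. The share with higher levels was 9.94% at Amdhd1, 8.46% at Uox, 6.32% at Ftcd, 5.29% at Hal, 4.49% at Hgd, 3.49% at Gstz1 and 2.39% at Xdh, where lower levels were as frequent. CpGs under 20% made up 10.4% of those at Ftcd in ND and 1.49% in NASH, 9.45% and 3.74% at Uox, and 33% and 29% at Gstz1. At Uox CpGs over 80% went from 25.2% to 30.5%.

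From 5 to 50 kb outside the gene the difference was 0.469 points at Uox, 0.495 at Hal, 0.321 at Amdhd1, -0.295 at Ftcd, -0.384 at Gstz1 and -0.643 at Xdh, and the libraries of the groups overlapped at each of these 6. At Hgd, given above, they did not overlap, and how many of all genes have separated flanks was not counted. The flanks of Hal and Amdhd1 include each other's genes.

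Exact zeros were fewer in the NASH mean at each of the 7 genes, and at Uox, Hgd and Xdh the groups did not overlap. Over all positions zeros also tended lower in NASH, at 12.3% to 12.96% against 12.75% to 13.1% in ND, with overlapping libraries, and how many genes have separated zeros was not counted. Zeros made up 8.61% ± 1.32 of the Uox positions in ND and 4.55% ± 0.833 in NASH, and 20.2% ± 2.82 and 15.8% ± 2.06 of those at Amdhd1. At Xdh, whose mean level was not called, they made up 9.47% ± 1.17 and 7.58% ± 0.196. Leaving out doubtful zeros alone kept 4 of the 5 calls, all but Hgd (1.9998 points, limma adjusted p = 0.0648). With every zero left out, the differences were 4.84 points at Uox, 3.32 at Amdhd1, 2.79 at Gstz1 and 2.03 at Hal (limma adjusted p = 0.0591, 0.0910, 0.0503 and 0.205).

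Other genes of the same pathways were taken from a list of 36, of which 22 had a tested extended span. Of the 22, 6 were called higher and 0 lower over the extended span, where 5.99% and 3.34% of all spans were called higher and lower. Of their 44 ends 0 were called, where 0.32% of all ends were. The median difference was 0.844 points over the 22 spans and -0.279 over all spans. On the phenylalanine and tyrosine side 3 of 7 were called higher, among them Qdpr, which regenerates tetrahydrobiopterin, from 47.7% ± 0.936 to 53.8% ± 1.14 (limma adjusted p = 0.00153), and Got1, an aspartate aminotransferase, from 54.1% ± 0.672 to 57.2% ± 1.33 (0.0306). On the histidine and folate side 1 of 3 was called higher, Mthfd1, a folate enzyme, from 68.1% ± 0.481 to 72.9% ± 1.15 (limma adjusted p = 0.00215). On the purine and urate side 2 of 12 were called higher: Mocs2, of molybdenum cofactor synthesis, from 56.8% ± 0.879 to 60.4% ± 0.624 (limma adjusted p = 0.00587), and Slc17a3, an organic anion transporter gene, from 68.6% ± 1.09 to 73.0% ± 2.42 (0.0461). Ada and Gda, of purine breakdown, were at 73.3% ± 1.44 and 78.6% ± 0.503 in ND and at 71.7% ± 1.20 and 77.7% ± 0.399 in NASH, and were not called.

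The gene ends most like the called ends were found by the root mean square difference over the 8 libraries. Nearest to the start end of Uox were the high-coordinate end of Hao1 (2.66 points apart), the low-coordinate end of Dcun1d1 (3.49) and the high-coordinate end of Pex6 (4.12). Nearest to the downstream end of Hal were the high-coordinate end of Hoxb7 (4.61), the low-coordinate end of Cnpy3 (5.58) and the high-coordinate end of Hnf4a (6.24). Of these 6 ends, Hao1, Dcun1d1, Pex6 and Cnpy3 were also called (limma adjusted p = 0.0381, 0.0130, 0.0437 and 0.0381), and Hoxb7 and Hnf4a were not (0.0506 for both). Among all ends 0.32% were called. The 6 were picked for library levels close to those of a called end, so low p-values follow from the choice and are no support.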

How the data were processed

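The deposited table gives methylation in percent per cytosine, with both strands of a CpG listed and no read depth; per the submitters' processing notes the build was mm10 and FastQC was used, while no source used here names the aligner or the caller. Groups follow the titles and column names. Of the table, 15 chromosomes were analysed, 1 to 5 and 10 to 19, with chromosome 5 in part, up to position 117098872. Another 85 contigs and 1 incomplete line were not used. Shares over all spans, ends, windows or CpGs thus cover these chromosomes and not the whole genome. Positions were lowered by 1 base, which placed both bases of 256194 of 256194 RefSeq start-region CpGs on listed positions (100%, against 10.2% without the shift). Equal-weight means were taken over gene spans with 5 kb on each side, gene ends (1000 bases outside to 500 inside) and windows of 1000 bases, each with at least 6 positions. A zero was doubtful where the median of its 10 nearest neighbours was 50% or more.

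Each kind of region was fitted in limma 3.58.1 (R 4.3.3), moderated with a trend in variance, with Benjamini-Hochberg adjustment over all regions of the kind and a threshold of 0.05, 4 libraries against 4. Regions with no spread within either group (34 spans, 371 ends and 11980 windows) were left out, a choice made after the data were seen. On simulated data with normal noise, differences were planted only in regions with a mean level between 20% and 80%. Those of 10 and 20 points were recovered in 98% and 100% of spans (14683 tested) and 14% and 59% of ends (28754 tested). In windows (200000 drawn) the shares were 0% and 17%, adjusted over fewer windows than the 1597857 of the main fit. Recovery at lower or higher levels was not tested. Replicate numbers were checked for pairing and did not pair the libraries. The genes, the pathway and marker lists and the naming rule (the 7 genes, called genes of the pathway list, and the 3 nearest ends of each called end) were chosen with earlier results of these data known; Ada and Gda were named after their values were seen. One gene of the pathway list is counted but not reported here. Python 3.11.15 with numpy 2.4.6, pandas 2.3.3 and matplotlib 3.10.9 was used for the rest.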

Additional observations from a re-analysis of the deposited data

Results flagged for a closer look

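In 4 of 56 groups of libraries, 1 library stood far from the others, judged by its gap to the nearest library over the range of the group by Dixon's test, which chance passes in about 1 of 20 groups. At the downstream end of Hal, NASH replicate 2 was at 38.5%, under the other NASH libraries. At the Uox start, NASH replicate 4 was at 51.7%, above the others. At the downstream end of Gstz1, NASH replicate 1 was at 85.2%, under the others. At the high-coordinate end of Xdh, ND replicate 2 was at 21.9%, under the others.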

How the results depend on the processing

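Extended spans gave 1370 calls, 773 to 1460 with 1 library left out (773 without ND replicate 1, 901 without ND replicate 4, 787 without NASH replicate 4) and 631 with every zero left out (153 higher and 478 lower, against 879 and 491). Gene ends gave 92 calls, 2 to 17 with 1 library left out, 0 with every zero left out (3320 at an unadjusted p under 0.05), 279 on a logit scale, 274 with 1 common prior variance, 890 with ends of 2000 bases and 3 with constant regions kept, an alternative chosen after seeing the data. Windows gave 0 calls, 0 to 2 with 1 library left out, 117 without doubtful zeros, 1701 without any zero, 10 on a logit scale, 1951 with 1 common prior variance, 288 with at least 10 positions and 4 with constant regions kept. Replicate numbers did not pair the libraries (correlations from -0.00532 to 0.0198); with the replicate block the calls were 950 spans, 0 ends (3434 at an unadjusted p under 0.05) and 0 windows, and 4 of the 7 genes, all but Gstz1 (adjusted p = 0.0600) among those called before.

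The 2 called ends, at Uox and Hal, were not called with the block (limma adjusted p = 0.141 and 0.122), without zeros (0.0678 and 0.0626) or with constant regions kept (0.0671 and 0.0712). Differences that changed sign were all at Xdh or the Gstz1 start. The Xdh span ran from -0.209 to 0.567 with 1 library left out (-0.149 without ND replicate 1, -0.0734 without NASH replicate 3) and was -0.147 without doubtful zeros and -1.54 without any zero. Its low-coordinate end ran from -1.30 to 2.24 (-0.319 without ND replicate 2) and was -0.0694 with ends of 2000 bases. Its high-coordinate end ran from -1.12 to 1.30 (-0.0835 without ND replicate 2) and was -0.909 with ends of 2000 bases and -15.2 without any zero. The Gstz1 start was 3.58 without any zero. Except where a setting tests fewer libraries or positions, the cause was not tested. With no read depth, the precision of a level is unknown.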
